A study of Mus musculus with 10 samples.

Results

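Plantaris muscle of male C57BL/6 mice after 10 d of overload, with signalling by platelet-derived growth factor (PDGF) blocked by an inhibitor, was compared with plantaris muscle without overload. The members are the 2 pools labelled as 10 d treatment and the 2 pools labelled as control without overload, 4 of the 10 pools in the study. Overload was by synergist ablation, an operation that removes calf muscles working beside the plantaris, so that the plantaris carries their load. The inhibited pools came from operated mice that received the inhibitor, whose name and dose the labels do not give. The pools without overload came from mice with neither the operation nor the inhibitor, and no time is given for them. Because the groups differ in operation and in inhibitor, this comparison alone cannot tell the effects of the operation and of the inhibitor apart. Therefore 2 pools of 10 d overload without inhibitor are set beside them, and these are called the uninhibited pools below. The remaining pools, from 3 d of overload with and without the inhibitor, were not tested. They entered the estimate of spread and averages over all 10 pools, and some of their values are given for neutrophil, platelet and red cell genes. No label names an altered allele or the age of the mice. RNA of 4 muscles was pooled for each array, and nothing in the labels states that both pools of a group are from separate animals. The p-values therefore reflect the spread among these pools alone, which may be technical in part.

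PDGFs are secreted growth factors. They bind the receptor kinases Pdgfra and Pdgfrb, which in muscle are found mainly on fibroblasts, fibro-adipogenic progenitors and the pericytes and smooth muscle cells of vessels, and they drive these cells to divide, migrate and make matrix. Overloaded muscle grows by enlarging its fibres, fusing satellite cells into them, re-expressing developmental contractile genes, recruiting macrophages and remodelling its connective tissue. The comparison asks which of these components of the later response are present when PDGF signalling is blocked.

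Values are log2 expression from 1 Affymetrix array per pool, and a difference of 1 is a 2-fold change. Array medians lay between 2.4 and 2.45. Across genes, pools of the same 10 d or no-overload group correlated at r = 0.989 to 0.992, and uninhibited pool 1 was as close to inhibited pool 2 (0.989) as to its own partner (0.989). The fast myosin Myh4 was bright and near the same level in the inhibited, uninhibited and no-overload pools. It measured 11.86 and 11.91 in the inhibited pools, 11.88 and 11.91 in the uninhibited pools and 12.07 and 12.01 without overload. A gene was called changed at an adjusted p under 0.05 in limma over 22180 genes, and values after ± are standard errors from that fit. The files hold no detection calls, and a level under about 3, near or under the array medians, may lie at background. A change against such a level is given as a fitted log2 difference with no fold, since its true size is uncertain.

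After 10 d of inhibited overload, many genes of growing and regenerating fibres were raised, with sarcolipin, developmental myosins, the load-responsive Ankrd1 and the fusion gene Mymk far above their levels without overload. Fibrillar matrix, macrophage and cell cycle genes were called higher than without overload in only some of their members, and no basement membrane gene was called. Changes were above 0 in 21 of 23 matrix, 20 of 20 macrophage and 22 of 27 cell cycle genes, called or not. The same held for 14 of 15 basement membrane genes, and the median change of all genes was -0.02. The neutrophil genes Lcn2 and Csf3r were higher with inhibited overload than in either other group. Of all genes, 345 were called (1.56%), 250 higher (1.13%) and 95 lower (0.428%), and 246 of them changed more than 2-fold. Uninhibited overload against the same pools without overload gave 1138 calls (5.13%), 865 higher (3.9%) and 273 lower (1.23%). These comparisons share the no-overload pools, so their values are set side by side and the difference was tested directly, inhibited against uninhibited. That test called 23 genes (0.104%), 5 higher (0.0225%) and 18 lower (0.0812%) in the inhibited pools. Which arrays entered the fit moved these counts: 31 genes were called with inhibited overload when inhibited pool 1 was left out, 112 without inhibited pool 2, 70 without no-overload pool 1 and 117 without no-overload pool 2. The direct test called 180 genes without uninhibited pool 1, 20 without either 3 d overload pool, and between 0 and 2 in every other omission, with 2352 genes at an unadjusted p under 0.05 over all arrays. Uninhibited overload gave 259 calls without no-overload pool 1, 525 without no-overload pool 2 and 324 without uninhibited pool 2. That uninhibited overload had more calls than inhibited overload is therefore not a fixed order: it turned round without uninhibited pool 2 (486 with inhibited and 324 with uninhibited overload) and when only the arrays of the groups compared were fitted (102 and 31). Where a pool of a compared group is left out, its partner is assumed to vary like the other groups. Leaving out either of the 2 pools of a group outside a comparison gives the same fit for that comparison. Tallies over 10 omissions therefore count such a fit 2 times, and these are not separate checks.

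**Figure D1:**
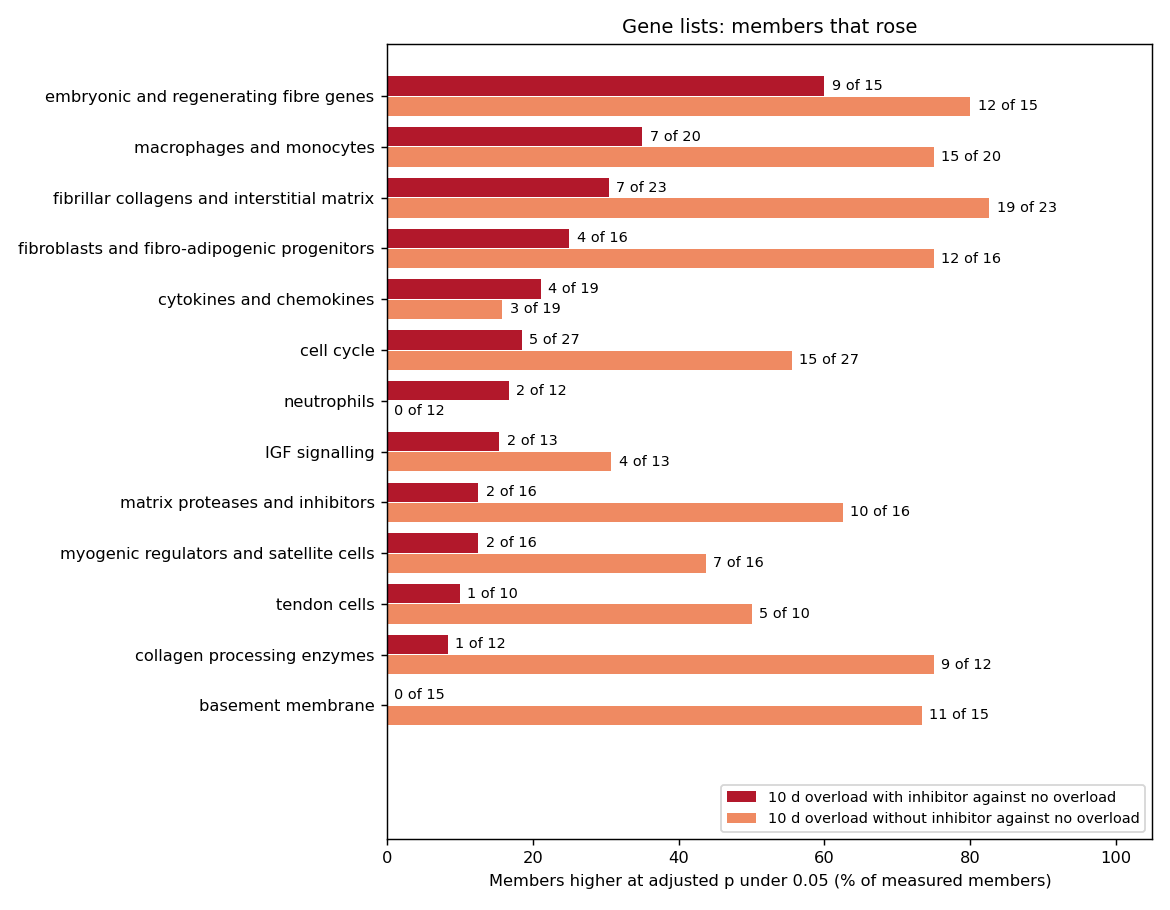
Share of the measured members of 13 gene lists that were higher than without overload at adjusted p under 0.05, in percent, for 10 d of overload with the inhibitor (dark bars) and without it (light bars). Labels give the counts: 9 and 12 of 15 embryonic and regenerating fibre genes, 7 and 19 of 23 fibrillar matrix genes, 0 and 11 of 15 basement membrane genes, and 2 and 0 of 12 neutrophil genes. Over all genes the shares called higher were 1.13% with the inhibitor and 3.9% without it.

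The plot of counts by gene list shows the groups in which the comparisons lie close together or far apart. Over all genes, 1.13% were called higher with inhibited and 3.9% with uninhibited overload. Each list count below stands against these shares, and a count of 0 in a short list is near them. Embryonic and regenerating fibre genes had the highest share called with inhibited overload, 9 of 15 measured, against 12 of 15 with uninhibited overload. Their median change was 1.58 with inhibited overload and 1.81 with uninhibited overload, where the median of all genes was -0.02 and -0.04. No member of that list passed the direct test, in which the list median was 0.08. The count with inhibited overload was 5 without inhibited pool 1 or no-overload pool 1 and at most 11 in any omission, with a median between 1.55 and 1.83. With uninhibited overload it was 6 without no-overload pool 1, 8 without no-overload pool 2 or uninhibited pool 2, and at most 11 in any omission. The order of the counts turned round without uninhibited pool 2 (11 with inhibited and 8 with uninhibited overload) and when only the arrays of the groups compared were fitted (8 and 3).

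Sarcolipin (Sln), a small membrane protein that uncouples the calcium pumps of muscle fibres, had the largest fitted rise among the genes that the naming rule selects. Sln measured 10.60 and 10.10 in the inhibited pools, 8.52 and 8.89 in the uninhibited pools and 2.43 and 3.75 in the pools without overload. Both inhibited pools lay above both uninhibited pools, which lay far above the pools without overload. The fitted log2 difference was 7.26 ± 0.38 (adjusted p = 5.86e-04), against a level under 3 in 1 of the no-overload pools, and the call held whichever of the 10 arrays was left out (6.61 to 7.92, adjusted p at most 0.0121). Against uninhibited overload Sln was higher by 1.64 ± 0.38, which did not pass (adjusted p = 0.185). Ankrd1, an ankyrin repeat protein of the sarcomere that responds to stretch, measured 11.49 and 11.20 in the inhibited pools, 10.61 and 10.91 in the uninhibited pools and 7.54 and 8.43 in the pools without overload. Its groups did not overlap, and it rose 10.3-fold against no overload (adjusted p = 0.00142), also in every omission. The direct difference in Ankrd1 was 0.58, with a 95% interval from -0.02 to 1.19.

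The developmental myosins rose in both settings. Embryonic myosin Myh3 measured 7.36 and 8.06 in the inhibited pools, 8.13 and 9.11 in the uninhibited pools and 4.49 and 4.55 in the pools without overload, a rise of 9.09-fold (log2 3.18 ± 0.34, adjusted p = 0.00460) that held in every omission. Perinatal myosin Myh8 measured 5.81 and 6.08 in the inhibited pools, 5.75 and 7.51 in the uninhibited pools and 2.29 and 2.70 in the pools without overload. The uninhibited pools straddled the inhibited ones for Myh8, and the rise of 3.45 (adjusted p = 0.0211), against no-overload levels under 3, was lost when any 1 of the inhibited or no-overload pools was left out (adjusted p at most 0.142). A second, dimmer probe set of Myh8 gave a change of 0.66. The direct differences were -0.91 for Myh3 (interval -1.68 to -0.15, adjusted p = 0.369) and -0.68 for Myh8 (interval -1.90 to 0.53).

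Promoters of the named members of this list are shown because these genes rose together. They are RefSeq windows of build GRCm38.p6, 5′ to 3′ on the gene's strand, from 250 bases before to 50 bases after the gene start, and 3 of the 4 named members have one. Capitals mark matches on either strand to the E-box CANNTG, the motif of myogenic factors such as MyoD, and to the MCAT element CATTCC, the motif of TEAD factors, written GGAATG where it lies on the other strand.
Myh3: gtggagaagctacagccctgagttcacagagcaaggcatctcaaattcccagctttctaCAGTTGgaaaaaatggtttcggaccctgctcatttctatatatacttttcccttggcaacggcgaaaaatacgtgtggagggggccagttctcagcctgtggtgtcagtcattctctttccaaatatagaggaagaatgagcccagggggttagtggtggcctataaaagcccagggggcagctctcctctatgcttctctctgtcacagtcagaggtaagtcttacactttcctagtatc
Myh8: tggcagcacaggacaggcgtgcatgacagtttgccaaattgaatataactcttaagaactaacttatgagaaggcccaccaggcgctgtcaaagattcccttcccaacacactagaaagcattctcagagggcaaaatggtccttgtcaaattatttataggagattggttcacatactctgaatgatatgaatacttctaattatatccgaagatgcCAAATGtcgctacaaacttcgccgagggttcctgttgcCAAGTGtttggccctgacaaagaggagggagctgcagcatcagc
Ankrd1: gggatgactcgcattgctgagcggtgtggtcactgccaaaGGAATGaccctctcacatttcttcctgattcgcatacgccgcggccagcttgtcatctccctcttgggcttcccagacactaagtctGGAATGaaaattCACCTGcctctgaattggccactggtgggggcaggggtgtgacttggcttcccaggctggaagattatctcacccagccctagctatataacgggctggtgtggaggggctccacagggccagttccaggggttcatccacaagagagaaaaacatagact
Myh3 lies at chr11:67078050-67078349 on the plus strand and holds 1 E-box. The Myh8 window, at chr11:67276874-67277173 on the plus strand, holds 2 E-boxes. For Ankrd1 the window is chr19:36119795-36120094 on the minus strand, with 1 E-box and 2 MCAT elements, and no match overlaps another in these windows. An E-box is found in 72.3% of all 32851 promoter windows of the same length, and 2 or more E-boxes in 39.6%. The shares with 1 or more and with 2 or more MCAT elements are 14.7% and 1.36%.

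Among the other fibre genes, embryonic light chain Myl4 and the light chain Myl6b rose by 2.16 each with inhibited overload and by 2.17 and 2.06 with uninhibited overload. Myl6b measured 7.38 and 7.61 in the inhibited pools, 7.53 and 7.26 in the uninhibited pools and 5.29 and 5.37 in the pools without overload, so the overload groups overlapped and the no-overload pools stood alone below them. Its direct difference was 0.10, with an interval from -0.33 to 0.52. The adhesion molecule Ncam1, which returns to the surface of growing and denervated fibres, rose by 2.14 ± 0.20 (adjusted p = 0.00280), beside 1.67 with uninhibited overload. Nestin (Nes), an intermediate filament protein, rose by 1.26, beside 1.28. The acetylcholine receptor subunits Chrna1 and Chrnb1 rose by 1.58 and 1.07, beside 0.76 and 0.69, and were the members called among 13 neuromuscular junction genes. Chrna1 measured 8.22 and 7.93 in the inhibited pools, 7.12 and 7.40 in the uninhibited pools and 6.48 and 6.52 in the pools without overload, in 3 separate steps, while its direct difference of 0.81 ± 0.18 did not pass (adjusted p = 0.176). Cardiac actin Actc1 (1.54), cardiac troponin Tnnt2 (1.52), Xirp1 (1.18), Chrng (0.83), Cdh15 (0.82) and desmin (Des, 0.29) were the members not called. Calls of Myl6b and Ncam1 held in every omission, Chrna1 was lost without inhibited pool 1 or no-overload pool 1 (adjusted p at most 0.0723), and Chrnb1 when any 1 of the inhibited or no-overload pools was left out (up to 0.0854).

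Mymk, the membrane protein that lets myoblasts fuse, measured 6.66 and 6.54 in the inhibited pools, 7.08 and 7.77 in the uninhibited pools and 3.48 and 3.49 in the pools without overload. The uninhibited pools were highest, and no group overlapped another. Mymk rose 8.65-fold (log2 3.11 ± 0.28, adjusted p = 0.00251) in every omission, and its direct difference of -0.83 did not pass (adjusted p = 0.320). In the list of 16 myogenic regulator and satellite cell genes, Mymk and Ncam1 were called with inhibited overload, against 7 with uninhibited overload. The uninhibited count was 2 without no-overload pool 1 or uninhibited pool 2, 3 without no-overload pool 2 and 4 without uninhibited pool 1, and with only the arrays of the groups compared the counts were 2 and 1. Myogenin (Myog), which drives myoblast differentiation, measured 5.02 and 4.39 in the inhibited pools, 5.33 and 5.93 in the uninhibited pools and 3.62 and 4.02 in the pools without overload. Its change was 0.89 with inhibited overload (adjusted p = 0.160), beside a called 1.81 with uninhibited overload, and the direct difference of -0.92 did not pass (adjusted p = 0.257). The satellite cell factor Pax7 changed by 0.97 without passing (adjusted p = 0.327).

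**Figure D2:**
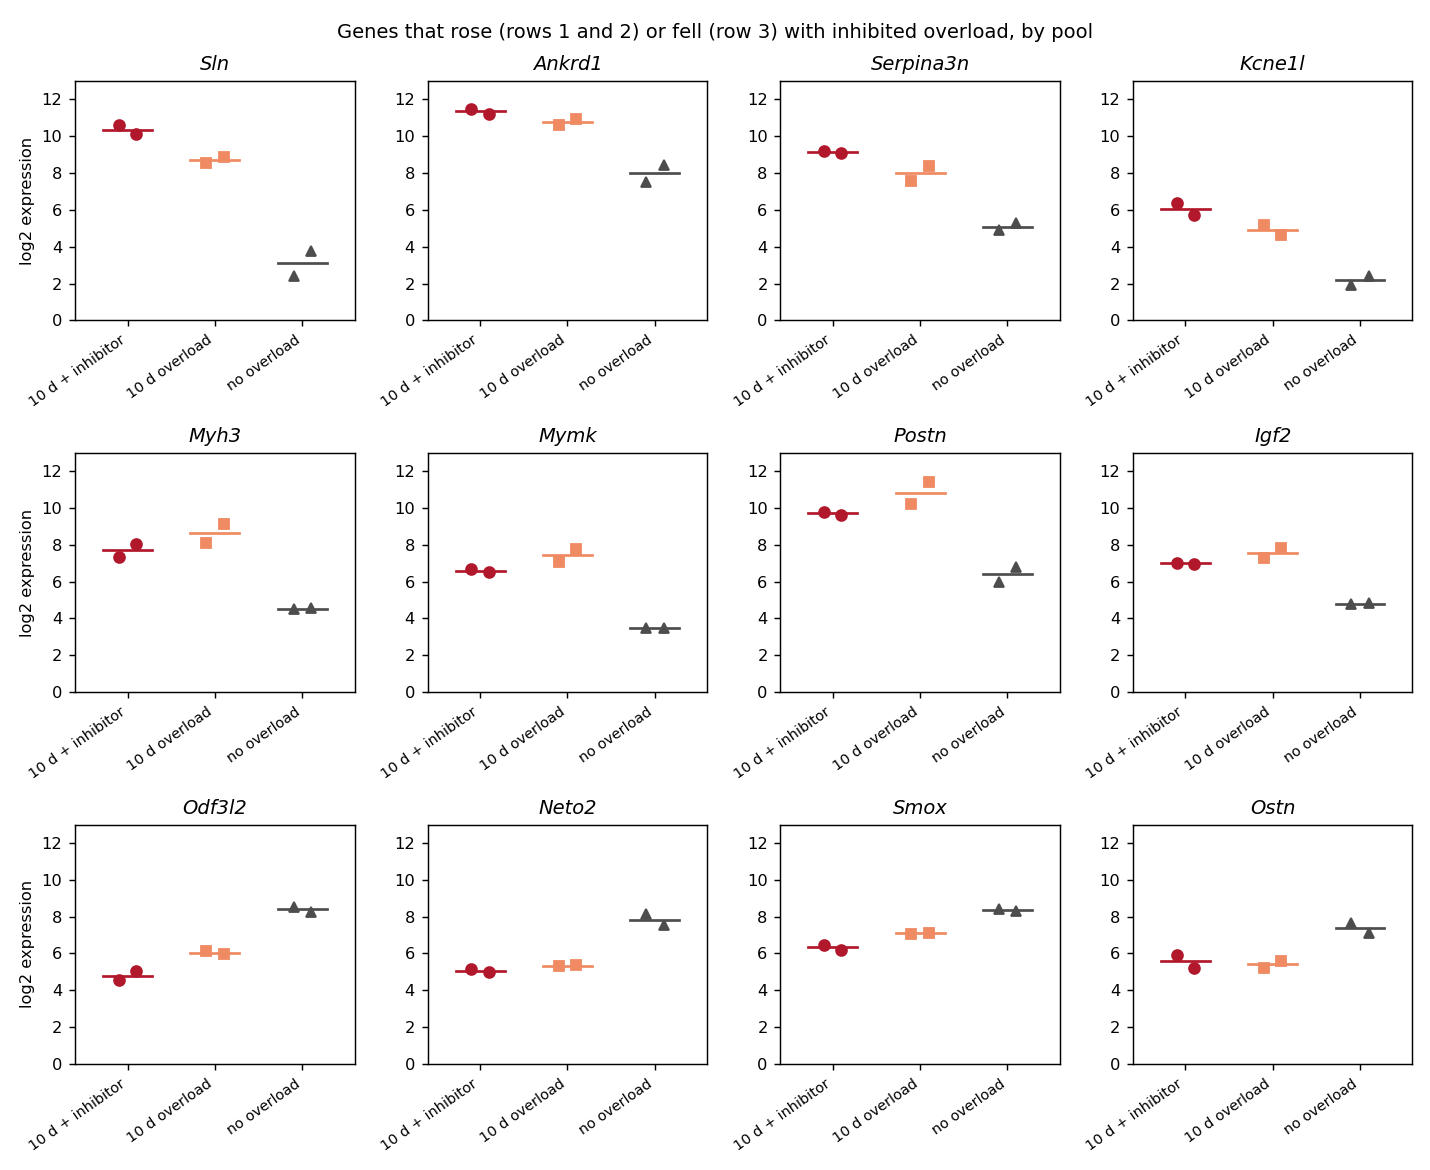
Log2 expression of 12 genes named in the text, one point per pool and a line at the group mean, for 10 d of overload with inhibitor, 10 d of overload and no overload, on a common axis. Sln stands at 10.60 and 10.10 with inhibitor against 2.43 and 3.75 without overload, Myh3 and Mymk are highest without the inhibitor, and Odf3l2, Neto2, Smox and Ostn are lowest in the overloaded muscles.

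As the plot of values by pool shows, other genes with large rises also rose with uninhibited overload. Serpina3n, an inhibitor of serine proteases from a family of near-identical copies that probes may not separate, measured 9.20 and 9.09 in the inhibited pools, 7.59 and 8.40 in the uninhibited pools and 4.91 and 5.28 in the pools without overload. The inhibited pools were the highest and did not overlap the others, and the rise against no overload was 16.5-fold (adjusted p = 0.00113). Kcne1l, a potassium channel subunit also listed as Kcne5, rose by 3.85 and the carboxylesterase Ces5a by 3.40, beside 2.74 and 2.65 with uninhibited overload, both against no-overload levels under 3. These 3 genes were called in every omission, with a direct difference from uninhibited overload of 1.15, 1.11 and 0.75 that did not pass. Across all genes, 31 calls with inhibited overload held in every omission, 26 higher and 5 lower, among them 13 of the 61 called genes named by rule. Named after their values were seen, others of these 31 were the protease Adamts20 (2.94), Serpinb1a (2.88), an inhibitor of neutrophil proteases, P-selectin (Selp, 2.4), an adhesion molecule of activated endothelium and platelets, the metallothionein Mt2 (2.37), the sodium channel subunit Scn3b (2.20) and the channel protein Panx1 (1.55).

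Insulin-like growth factor 2 (Igf2), a growth factor of fetal and regenerating muscle, measured 7.04 and 6.98 in the inhibited pools, 7.31 and 7.83 in the uninhibited pools and 4.76 and 4.84 in the pools without overload. The no-overload pools stood alone at the bottom. Igf2 rose 4.61-fold (log2 2.20 ± 0.18, adjusted p = 0.00181) in every omission, and the direct difference of -0.56 did not pass (adjusted p = 0.313). Igfbp4, which binds these factors, rose by 1.24 (adjusted p = 0.0490), a call kept only where an uninhibited pool was left out. Igf1 changed by 1.25, just outside the threshold (adjusted p = 0.0533), beside a called 1.55. Atf3, a stress-induced transcription factor, was the one called among 21 immediate early and ERK feedback genes, with 1.81 beside 1.21, and was lost when inhibited pool 1 or either pool without overload was left out (adjusted p at most 0.157).

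Slow fibre genes split in direction. Slow troponin T (Tnnt1) rose by 1.55 ± 0.15 in every omission, cardiac calsequestrin (Casq2) by 1.40 and the slow troponin C (Tnnc1) by 1.20, beside 2.0, 1.37 and 1.30 with uninhibited overload. Slow light chain Myl3 measured 3.61 and 4.35 in the inhibited pools, 5.08 and 4.96 in the uninhibited pools and 5.85 and 5.63 in the pools without overload, lowest with the inhibitor and with no overlap. It fell by 1.76 (adjusted p = 0.0224), beside -0.72 that was not called with uninhibited overload, and the direct difference of -1.04 did not pass (adjusted p = 0.233). Slow myosin Myh7 changed by -0.82 with inhibited and 0.83 with uninhibited overload, neither called, and the direct difference of -1.65 did not pass (adjusted p = 0.206). Casq2, Tnnc1 and Myl3 were each lost in 3 or 4 omissions of inhibited or no-overload pools (adjusted p at most 0.160). Fast fibre genes had 0 of 14 called in either comparison, with medians of -0.03 and -0.02 and 0 called in the direct test.

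Genes lower in inhibited overload than without overload were led by Odf3l2, which measured 4.54 and 5.03 in the inhibited pools, 6.12 and 5.96 in the uninhibited pools and 8.55 and 8.24 in the pools without overload. It fell 12.2-fold (log2 -3.61 ± 0.37, adjusted p = 0.00425), a call lost without inhibited pool 1 (adjusted p = 0.0628). Neto2, an auxiliary subunit of kainate receptors, measured 5.15 and 4.98 in the inhibited pools, 5.29 and 5.37 in the uninhibited pools and 8.13 and 7.55 in the pools without overload. Both overload groups stood well below the pools without overload. Neto2 fell 6.84-fold (adjusted p = 0.00113) and spermine oxidase (Smox), a polyamine enzyme, 4.08-fold (adjusted p = 0.00113), both in every omission. The other large falls, in part down to levels under 3, were in the zinc transporter Slc30a2 (-2.43), the muscle methyltransferase Mettl21e (-2.34), the lipid-hydrolysing Ces1d (-2.29), the arrestin-domain gene Arrdc2 (-2.02), Btbd35f2 (-2.0), the GTPase Gbp10 (-1.83) and Ostn (-1.81), which encodes the muscle hormone musclin. Each of these 7 lost its call in at least 3 omissions, with an adjusted p of up to 0.187. Btbd35f2 and Gbp10 belong to families with near-identical copies, which the probes may not separate. With uninhibited overload Slc30a2 (-2.36), Mettl21e (-1.89), Ces1d (-1.63) and Ostn (-1.97) were also called lower. Arrdc2 (-1.17), Btbd35f2 (-1.26) and Gbp10 (-1.18) were lower there too, but not called.

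Energy metabolism lists had medians below 0 in both overload settings, with few calls. Of 21 fatty acid oxidation genes, 2 fell with inhibited overload and 4 with uninhibited overload, and list medians were -0.58 and -0.56. Without either no-overload pool, or with only the arrays of the groups compared, both counts were 0. Lipoprotein lipase (Lpl), which releases fatty acids for uptake, measured 9.26 and 9.40 in the inhibited pools, 9.50 and 9.22 in the uninhibited pools and 10.24 and 10.31 in the pools without overload. The overload groups overlapped below the pools without overload. Lpl fell 1.93-fold (adjusted p = 0.0212) and the acyl-CoA dehydrogenase Acadvl 1.78-fold (adjusted p = 0.0293), each lost when any 1 of the inhibited or no-overload pools was left out (adjusted p at most 0.191). A second probe set of Lpl gave -0.49. Their direct differences were -0.03 (interval -0.37 to 0.31) and -0.12 (interval -0.44 to 0.21). None of 25 oxidative phosphorylation, 13 tricarboxylic acid cycle or 16 glycolysis genes was called with inhibited overload, with medians of -0.37, -0.39 and -0.26 beside -0.30, -0.35 and -0.23. In the atrophy and autophagy list, the ubiquitin ligase Fbxo32 (atrogin-1) fell by 1.04 and the autophagosome protein Map1lc3a rose by 1.12, of 17 genes. Fbxo32 was lost in 4 omissions and Map1lc3a in 8 (adjusted p at most 0.263).

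Interstitial matrix genes were partly raised. Of 23 fibrillar collagen and interstitial matrix genes, 7 rose with inhibited overload and 19 with uninhibited overload, with list medians of 1.16 and 2.21 and a direct median of -1.14. The shares called higher over all genes were 1.13% and 3.9%. In bulk muscle, fewer cells of a type and less RNA per cell cannot be told apart. Periostin (Postn), a matrix protein of healing tissue, measured 9.80 and 9.63 in the inhibited pools, 10.23 and 11.40 in the uninhibited pools and 5.98 and 6.82 in the pools without overload. Collagen III (Col3a1) measured 9.12 and 8.94 in the inhibited pools, 9.77 and 10.57 in the uninhibited pools and 6.78 and 6.82 in the pools without overload. For both genes the inhibited pools lay between the other groups with no overlap. Postn rose 9.98-fold (adjusted p = 0.00598) and Col3a1 4.69-fold (adjusted p = 0.00425), beside 21.3-fold and 10.4-fold with uninhibited overload. The direct differences of -1.10 ± 0.37 and -1.14 ± 0.23 did not pass (adjusted p = 0.324 and 0.140). Without inhibited pool 1 neither rise was called (adjusted p = 0.0710 for Postn and 0.0628 for Col3a1).

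Col14a1 (1.92), the main collagen chain Col1a1 (1.63), Thbs4 (1.45), biglycan (Bgn, 1.19) and Sparc (0.85), a collagen-binding glycoprotein, were the other matrix genes that rose with inhibited overload. Tenascin C (Tnc), a glycoprotein of loaded tissue, measured 6.00 and 6.08 in the inhibited pools, 7.06 and 8.27 in the uninhibited pools and 4.48 and 4.59 in the pools without overload. Its change of 1.51 was not called (adjusted p = 0.0618), beside a called 3.13, and the direct difference of -1.63 did not pass (adjusted p = 0.139). The count of matrix calls was 0 without inhibited pool 1, 2 without inhibited pool 2 or either no-overload pool, and up to 15 in the other omissions, whereas the list median stayed between 0.98 and 1.21. The uninhibited count was 16 to 20 over all omissions. With only the arrays of the groups compared the order turned round, 7 with inhibited and 1 with uninhibited overload, while the medians, which do not depend on the estimate of spread, were again 1.16 and 2.21. The uninhibited pools differed from each other, with list scores for matrix genes (the median over members of each value minus its mean over 10 arrays) of -0.18 and -0.15 in the inhibited pools, 0.45 and 1.40 in the uninhibited pools and -1.31 and -1.15 in the pools without overload. The direct median was -0.61 without uninhibited pool 2 and -1.62 without uninhibited pool 1, and 14 members passed the direct test in that omission, against 0 in all others and over all arrays.

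**Figure D3:**
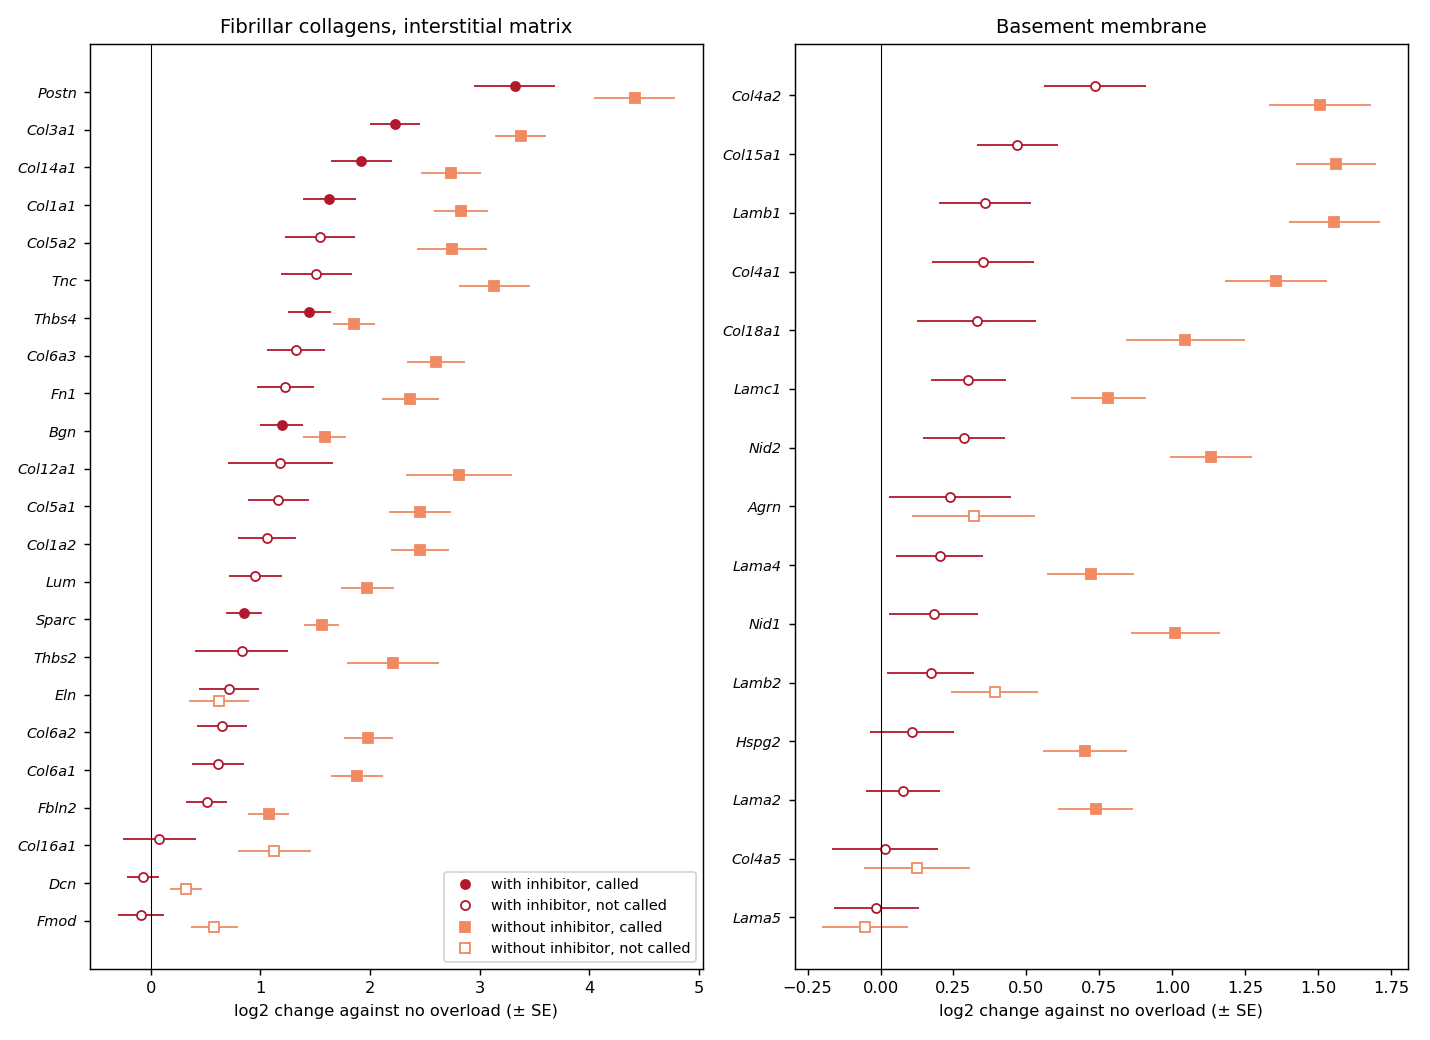
Log2 change against no overload with standard error for each measured fibrillar and interstitial matrix gene (left) and basement membrane gene (right), after 10 d of overload with the inhibitor (circles) and without it (squares), with filled symbols for called genes. On the left most circles lie above 0 and to the left of their squares, and on the right 0 of 15 circles and 11 of 15 squares are filled. Over all genes 1.13% were called higher with the inhibitor and 3.9% without it, so 0 of 15 circles is near the share of all genes.

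Basement membrane genes encode the sheet that surrounds fibres and vessels, and the plot of matrix changes shows them beside the interstitial matrix. Of 15 members, 0 were called with inhibited overload (median 0.24) and 11 rose with uninhibited overload (median 0.78), and no omission gave a call with inhibited overload. The uninhibited count was 5 without uninhibited pool 2 or no-overload pool 1, 7 without no-overload pool 2, and 0 when only the arrays of the groups compared were fitted. Laminin chain Lamb1 measured 6.51 and 6.33 in the inhibited pools, 7.48 and 7.75 in the uninhibited pools and 5.99 and 6.13 in the pools without overload. Col15a1, a collagen that anchors this sheet to the matrix, measured 5.41 and 5.47 in the inhibited pools, 6.53 and 6.54 in the uninhibited pools and 5.0 and 4.94 in the pools without overload. In both genes the inhibited pools lay nearer to the pools without overload than to the uninhibited pools, without overlap. These 2 members passed the direct test, with -1.20 ± 0.16 for Lamb1 (adjusted p = 0.0459) and -1.09 ± 0.14 for Col15a1 (adjusted p = 0.0417), and the direct median of the list was -0.66. The direct count was 3 without uninhibited pool 1, 1 without either 3 d overload pool and 0 in the other omissions. Col4a1 and Col4a2, the main collagen IV chains, changed by 0.35 and 0.73 with inhibited overload, not called, beside 1.36 and 1.51.

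Collagen processing and matrix turnover genes had calls in both overload settings. Of 12 collagen processing enzymes, only the cross-linking Lox rose with inhibited overload (2.16, adjusted p = 0.0263), against 9 with uninhibited overload, and list medians were 0.63 and 1.49. P4ha3, a prolyl hydroxylase of collagen, measured 5.19 and 5.14 in the inhibited pools, 5.0 and 7.28 in the uninhibited pools and 1.84 and 2.46 in the pools without overload, and its change of 3.01 lay just outside the threshold (adjusted p = 0.0528). Uninhibited pool 1 was below both inhibited pools for P4ha3 and for Lox, and its partner was above them. Among 16 matrix proteases and inhibitors, the inhibitor Timp1 (2.47) and the metalloprotease Mmp23 (1.47) rose, against 10 with uninhibited overload, with list medians of 1.09 and 1.47. Mmp14, which activates other metalloproteases, changed by 1.83 (adjusted p = 0.0512) beside a called 3.15, and cathepsin K (Ctsk) by 1.64 (adjusted p = 0.102) beside 3.07. Both orders turned round when only the arrays of the groups compared were fitted, with 4 inhibited and 0 uninhibited calls in each list. Without no-overload pool 1 the uninhibited counts were 3 collagen processing and 5 protease genes, and without no-overload pool 2 they were 6 and 6. Without uninhibited pool 2 there were 5 inhibited and 8 uninhibited calls in collagen processing, and 8 and 6 among the proteases. Lox, Timp1 and Mmp23 each lost their call without either inhibited pool and without no-overload pool 1 (adjusted p at most 0.187).

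Markers of the cells that carry PDGF receptors were set beside the matrix genes. Of 16 fibroblast and fibro-adipogenic progenitor markers, 4 rose with inhibited overload (Col1a1, Mfap5, Pi16 and S100a4) and 12 with uninhibited overload, with medians of 0.39 and 1.18. Their list scores were -0.05 and 0.00 in the inhibited pools, 0.46 and 1.01 in the uninhibited pools and -0.40 and -0.45 in the pools without overload. Inhibited pools thus lay between the other groups, as for the matrix genes, and the part of this in the matrix result was not tested. The lists overlap: Col1a1, Dcn and Lum are fibroblast and matrix members, and Thbs4, Fmod and Tnc are tendon and matrix members. The Col1a1 and Thbs4 calls are therefore counted in the matrix list as well, and these lists are not independent. The fibroblast counts were 0 with inhibited overload without either inhibited pool or no-overload pool 1, and 5 with uninhibited overload without no-overload pool 1. Without uninhibited pool 2 they were 5 and 6, and with only the arrays of the groups compared 1 and 0. Tendon markers had 1 of 10 called with inhibited overload (Thbs4) and 5 with uninhibited overload, the second count being 2 without no-overload pool 1, 3 without no-overload pool 2 or uninhibited pool 2, and 0 with only the arrays of the groups compared, against 2 with inhibited overload in that fit. Tenomodulin (Tnmd), a membrane protein that marks tendon cells, measured 6.04 and 6.86 in the inhibited pools, 8.03 and 9.12 in the uninhibited pools and 5.89 and 6.00 in the pools without overload, with a direct difference of -2.13 ± 0.38 that did not pass (adjusted p = 0.128). None of 14 endothelial or 13 pericyte and smooth muscle markers was called with inhibited overload, with medians of 0.02 and 0.06.

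No PDGF ligand or receptor was called with inhibited overload. Among the ligands the changes were -0.26 for Pdgfa, 0.64 for Pdgfb, 0.37 for Pdgfc and 0.36 for Pdgfd. Fibroblast receptor Pdgfra measured 7.45 and 7.66 in the inhibited pools, 7.94 and 8.32 in the uninhibited pools and 7.37 and 7.24 in the pools without overload. The uninhibited pools were the highest, and inhibited pools lay close above the pools without overload. Its change was 0.25 ± 0.16 (adjusted p = 0.537), beside a called 0.82 with uninhibited overload, and the direct difference was -0.57 (interval -0.95 to -0.20, adjusted p = 0.250). The pericyte receptor Pdgfrb changed by 0.15 (adjusted p = 0.738), beside 0.54. Receptor signalling itself was not measured by these arrays. Of 21 TGF-beta, activin and BMP genes, 0 were called with inhibited overload, against 5 higher and 1 lower (myostatin, Mstn, -1.17 beside -0.79) with uninhibited overload. Without uninhibited pool 2 these counts were 2 higher with inhibited and 0 with uninhibited overload, and both were 0 without no-overload pool 1 or with only the arrays of the groups compared.

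Cell cycle genes were raised in part. With inhibited overload 5 of 27 rose and with uninhibited overload 15, with list medians of 0.42 and 0.91 and a direct median of -0.61. The proliferation marker Mki67 measured 4.55 and 3.83 in the inhibited pools, 5.62 and 5.66 in the uninhibited pools and 2.58 and 2.68 in the pools without overload. Cyclin Ccnb2, which drives mitosis, measured 4.19 and 3.62 in the inhibited pools, 5.36 and 5.39 in the uninhibited pools and 2.47 and 2.52 in the pools without overload. Inhibited pools lay between the other groups for both genes. Mki67 rose by 1.56 (adjusted p = 0.0152) and Ccnb2 by 1.41 (adjusted p = 0.0173), beside 3.02 and 2.88, against no-overload levels under 3, and the direct differences of -1.46 and -1.47 did not pass (adjusted p = 0.0719 and 0.0575). The other called members were the motor Kif11 (1.43), the replication helicase subunit Mcm6 (1.33) and cyclin Ccna2 (0.79). Top2a, which untangles replicated DNA, measured 3.25 and 2.83 in the inhibited pools, 4.50 and 4.80 in the uninhibited pools and 2.41 and 2.71 in the pools without overload, and it passed the direct test (-1.62 ± 0.19, adjusted p = 0.0371), a call kept in 1 of 10 omissions. Without inhibited pool 1 the list had 0 calls with inhibited overload, and 1 to 3 without inhibited pool 2 or either no-overload pool, while its median stayed between 0.34 and 0.57. The uninhibited count was 7 without no-overload pool 1 or uninhibited pool 2 and 9 without uninhibited pool 1. With only the arrays of the groups compared the counts were 0 with inhibited and 3 with uninhibited overload.

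**Figure D4:**
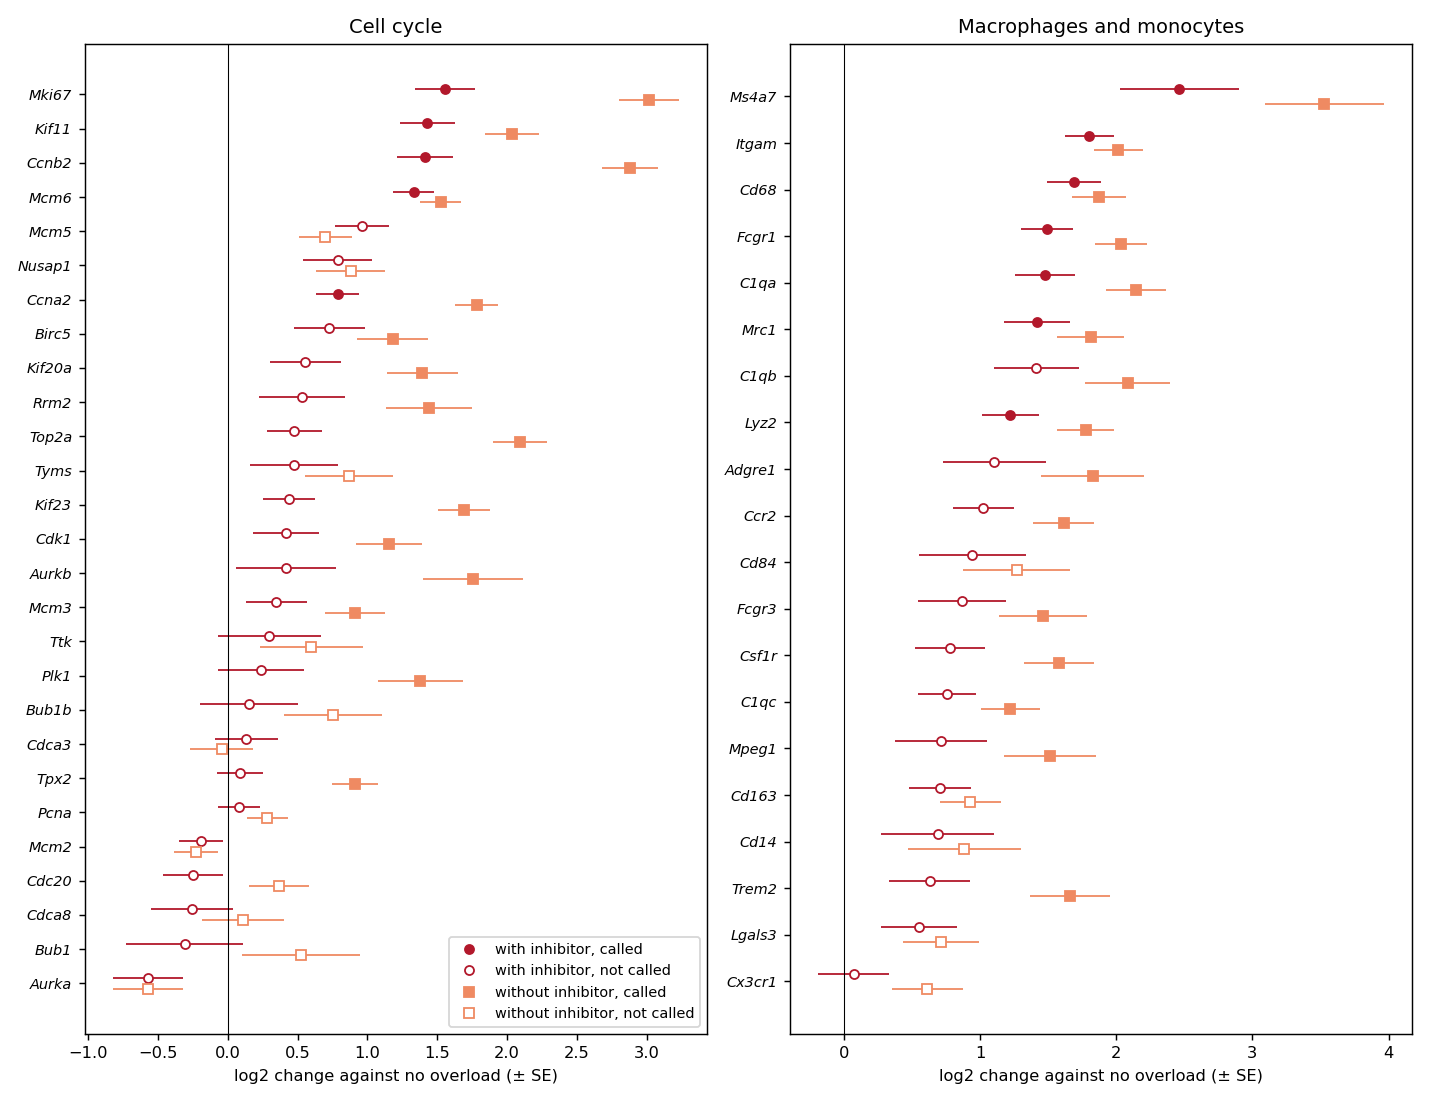
Log2 change against no overload with standard error for each measured cell cycle gene (left) and macrophage and monocyte gene (right), after 10 d of overload with the inhibitor (circles) and without it (squares), with filled symbols for called genes. Mki67 and Ccnb2 changed by 1.56 and 1.41 with the inhibitor against 3.02 and 2.88 without it, and Itgam and Cd68 by 1.80 and 1.69 against 2.02 and 1.87.

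Macrophage genes were also raised, as the plot of cell cycle and macrophage changes shows. Of 20 macrophage and monocyte genes, 7 rose with inhibited overload and 15 with uninhibited overload, with medians of 0.98 and 1.64, and 0 passed the direct test (median -0.55). The integrin subunit Itgam measured 5.26 and 5.17 in the inhibited pools, 5.29 and 5.57 in the uninhibited pools and 3.55 and 3.27 in the pools without overload. The lysosomal protein Cd68 measured 6.84 and 6.79 in the inhibited pools, 6.71 and 7.29 in the uninhibited pools and 4.97 and 5.28 in the pools without overload. The pools without overload were lowest for both, and the overload groups overlapped for Cd68. Itgam rose 3.48-fold (adjusted p = 0.00364) and Cd68 3.23-fold (adjusted p = 0.00729), with direct differences of -0.22 (interval -0.63 to 0.19) and -0.18 (interval -0.63 to 0.27). Ms4a7 (2.46), the Fc receptor Fcgr1 (1.49), the complement gene C1qa (1.48), the mannose receptor Mrc1 (1.42) and lysozyme Lyz2 (1.22) also rose. Itgam was not called without inhibited pool 1 (adjusted p = 0.0601), nor Cd68 without inhibited pool 1 or no-overload pool 1 (adjusted p at most 0.0796). The count of the list was 0 without inhibited pool 1, 3 without inhibited pool 2, 1 without no-overload pool 1, 4 without no-overload pool 2, and at most 9 in any omission, with a median between 0.80 and 1.14. The uninhibited count was 7 without no-overload pool 1 and 9 without uninhibited pool 2, which equals the inhibited count in that omission. With only the arrays of the groups compared the order turned round, 3 with inhibited and 1 with uninhibited overload.

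Chemokines that attract monocytes and other leukocytes rose too, with Ccl8 (2.14), Ccl6 (1.45), Ccl7 (1.42) and Ccl9 (1.33) called among 19 cytokines and chemokines, beside 2.31, 1.05, 1.09 and 1.61 with uninhibited overload. None of these 4 calls held when any 1 inhibited or no-overload pool was left out (adjusted p at most 0.255). H2-Ab1, a class II antigen presentation gene, measured 5.87 and 5.96 in the inhibited pools, 7.50 and 8.10 in the uninhibited pools and 5.93 and 5.79 in the pools without overload. Inhibited pools and pools without overload were level and overlapped, and the uninhibited pools stood above them. H2-Ab1 changed by 0.05 with inhibited overload, beside 1.94, and passed the direct test (-1.88 ± 0.20, adjusted p = 0.0256), a call kept in 3 of 10 omissions. Chosen after their values were seen, the class II genes H2-Aa and H2-Eb1 had direct differences of -1.71 and -1.64 that did not pass (adjusted p = 0.0719 and 0.0764). None of 12 listed lymphocyte or 7 mast cell markers was called in any comparison. Ighm, an immunoglobulin heavy chain gene of B cells that is not in that list and was named after its values were seen, measured 6.80 and 6.39 in the inhibited pools, 7.14 and 7.26 in the uninhibited pools and 8.95 and 8.52 in the pools without overload. It was lowest in the inhibited pools with no overlap, fell by 2.14 against no overload (adjusted p = 0.00425) in every omission, and fell by 1.54 with uninhibited overload. Its other 6 probe sets gave changes from -1.82 to 0.71 with inhibited overload.

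Among the inhibited, uninhibited and no-overload pools, neutrophil genes were highest in the inhibited pools. Of 12 measured, Lcn2 and Csf3r rose with inhibited overload and 0 with uninhibited overload, with list medians of 1.67 and -0.10. Both also passed the direct test, in which the list median was 2.25. Lipocalin 2 (Lcn2), an iron-siderophore binding protein of neutrophil granules, measured 6.49 and 6.54 in the inhibited pools, 3.81 and 3.79 in the uninhibited pools and 3.75 and 3.85 in the pools without overload. The G-CSF receptor Csf3r measured 4.54 and 4.53 in the inhibited pools, 3.29 and 3.31 in the uninhibited pools and 3.02 and 3.09 in the pools without overload. Among these groups only the inhibited pools were high, and the 3 d pools were high as well, with Lcn2 at 7.31 and 6.69 with the inhibitor and 6.92 and 5.92 without it. Lcn2 rose 6.59-fold against no overload (adjusted p = 0.00622) and was 6.57-fold above uninhibited overload (log2 2.72 ± 0.31, adjusted p = 0.0303). Csf3r rose 2.78-fold (adjusted p = 0.00257) and was 2.35-fold above uninhibited overload (adjusted p = 0.0256).

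Both inhibited pools lay above all 4 uninhibited and no-overload pools in 11 of the 12 neutrophil genes, which held for 7.62% of all genes. S100a8, a calcium-binding protein abundant in neutrophils, measured 4.72 and 4.78 in the inhibited pools, 0.86 and 0.93 in the uninhibited pools and 0.98 and 1.19 in the pools without overload. Its difference of 3.66 was not called (adjusted p = 0.0725), and 3 d overload pools of 5.45 and 2.05 entered its spread. Retnlg (3.61) and Ngp (3.52) were not called either. For granulocyte precursor genes, the elastase Elane measured 1.75 and 1.33 in the inhibited pools, 1.05 and 1.01 in the uninhibited pools and 1.33 and 1.15 in the pools without overload, and 0 of 5 such genes were called. In 2 of these 5 both inhibited pools lay above all 4 uninhibited and no-overload pools, and the list median was 0.30 against no overload. Stfa2l1, a protease inhibitor of the stefin A family with near-identical copies that probes may not separate, measured 4.31 and 3.91 in the inhibited pools, 0.72 and 1.19 in the uninhibited pools and 0.94 and 1.06 in the pools without overload. Its levels in the uninhibited and no-overload pools are under 3 and may be background, so only the direction of its call against no overload (adjusted p = 0.0173) is given. The direct comparison of Stfa2l1 did not pass (adjusted p = 0.0642). Csf3r rose against no overload in every omission, Lcn2 was lost without inhibited pool 1 or no-overload pool 1 (adjusted p at most 0.0692), and the direct calls of both were kept in 3 of 10 omissions. Without either uninhibited 3 d pool 7 neutrophil genes were called against no overload, and 1 without inhibited pool 1 or no-overload pool 1. With only the arrays of the groups compared there were 6.

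**Figure D5:**
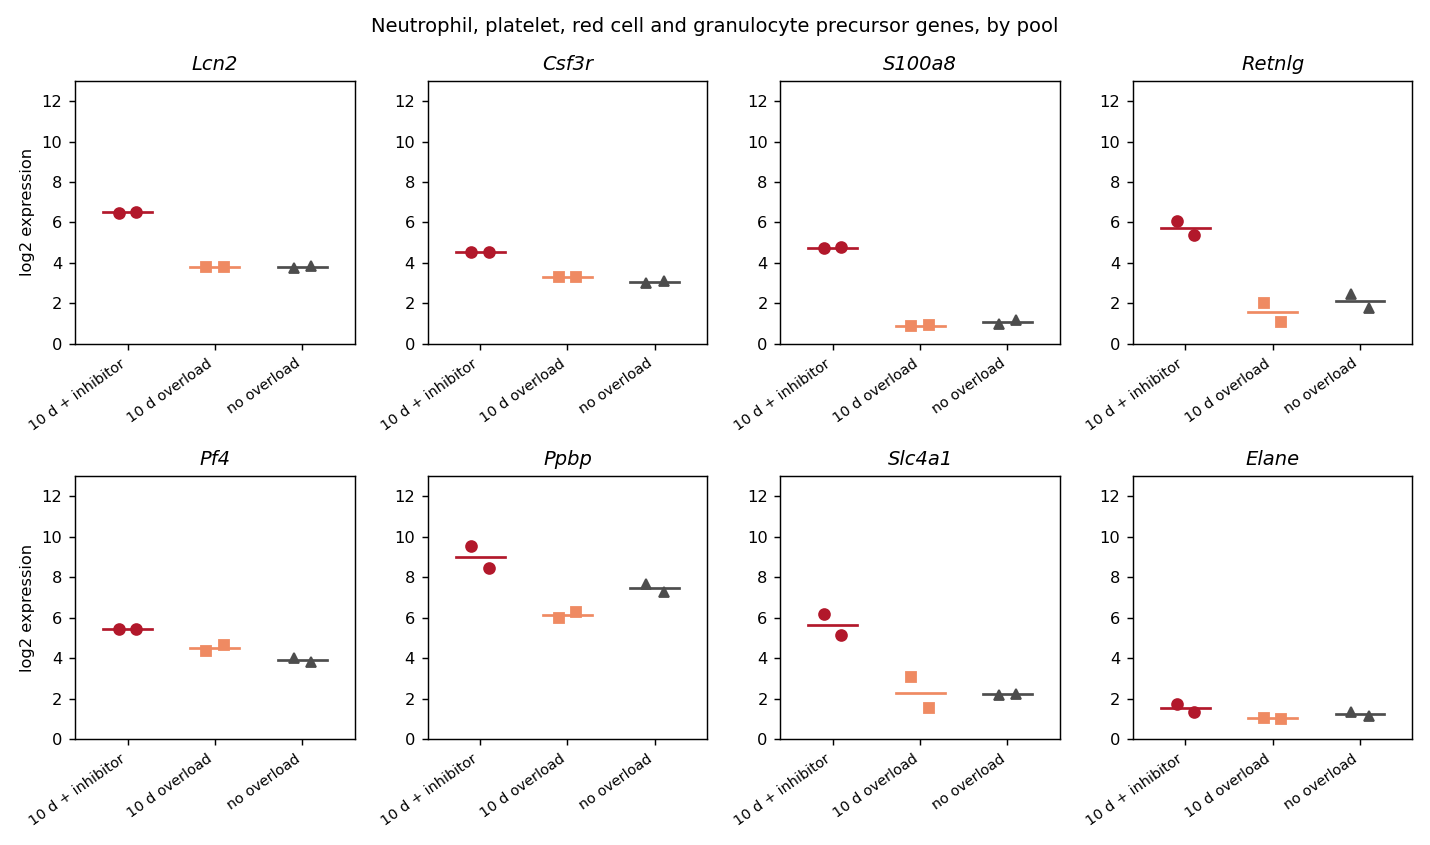
Log2 expression of 4 neutrophil genes (top), 2 platelet genes, 1 red cell gene and 1 granulocyte precursor gene (bottom), one point per pool and a line at the group mean, for 10 d of overload with inhibitor, 10 d of overload and no overload. S100a8 stands at 4.72 and 4.78 with inhibitor and at no more than 1.19 in the other pools, and Elane at no more than 1.75 in any.

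Platelet genes and the 1 measured red cell gene were also higher in the inhibited pools than in the uninhibited and no-overload pools, as the plot of blood cell genes shows. Platelet factor 4 (Pf4) measured 5.45 and 5.46 in the inhibited pools and 4.35 and 4.62 in the uninhibited pools. In the pools without overload it measured 4.0 and 3.82, and among these groups the inhibited pools were highest with no overlap. The 3 d pools were as high or higher, with Pf4 at 5.48 and 5.50 with the inhibitor and 6.47 and 6.04 without it. Pf4 rose 2.91-fold (adjusted p = 0.00622), and was the one called of 5 platelet genes. All 5 were higher in both inhibited pools than in all 4 uninhibited and no-overload pools, which held for 7.62% of all genes. Pf4 was lost without inhibited pool 1 (adjusted p = 0.0707). The single measured red cell gene, the anion exchanger Slc4a1, measured 6.16 and 5.15 in the inhibited pools, 3.04 and 1.55 in the uninhibited pools and 2.20 and 2.23 in the pools without overload, and its change of 3.44 was not called (adjusted p = 0.101). At 3 d, relative to its mean over all arrays, Slc4a1 stood at 1.66 and -1.45 without the inhibitor and -0.46 and -0.59 with it, so the uninhibited 3 d pools differed widely. Platelet list scores were 1.19 and 0.39 in the inhibited pools, -0.77 and -0.50 in the uninhibited pools and -0.06 and -0.22 in the pools without overload. At 3 d the platelet scores were 0.36 and 0.65 with the inhibitor and -0.26 and -0.56 without it, the reverse of the order of Pf4 at 3 d. Neutrophil list scores were 1.04 and 0.75 in the inhibited pools, -1.18 and -1.22 in the uninhibited pools and -1.01 and -0.89 in the pools without overload. At 3 d the scores were 0.66 and 0.41 with the inhibitor and 1.64 and -0.58 without it, so 1 uninhibited 3 d pool lay above both 10 d inhibited pools. Whether the amount of blood in the muscles played a part in the neutrophil values was not tested.

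The direct test named further genes outside the lists. Doppel (Prnd), a prion-like protein, measured 3.99 and 3.39 in the inhibited pools, 7.42 and 6.61 in the uninhibited pools and 4.27 and 4.95 in the pools without overload. Inhibited pools were the lowest, with no overlap. Prnd differed by -3.32 ± 0.32 (adjusted p = 0.0256), a 9.99-fold lower level than with uninhibited overload, while its change of -0.92 against no overload was not called. A second probe set of Prnd gave 0.01 against no overload, which does not bear on its direct difference. When all probe sets were fitted, the direct test called 0 of them. Agpat4, a lipid acyltransferase (-1.87), the transcription factor Sox4 (-1.72) and Prc1, a protein of the dividing spindle (-1.55), were also lower with the inhibitor, and of these only Prc1 was also called against no overload (1.11). Sox4 changed by 0.60 against no overload, and by 0.18 in its second probe set. The protease-activated receptor F2rl2 measured 4.16 and 3.70 in the inhibited pools, 1.89 and 2.0 in the uninhibited pools and 2.35 and 2.26 in the pools without overload, highest in the inhibited pools, and passed both tests (1.63 and 1.99). The signalling ligand Wnt4 (1.56) and Ctxn3 (1.32) were higher than with uninhibited overload, and their changes of 0.71 and 0.22 against no overload were not called. None of the 23 direct calls held in every omission.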

How the data were processed

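Per the labels, RNA from plantaris muscles was pooled and hybridised to Affymetrix Mouse Gene 2.1 ST arrays, 1 per pool, and the labels name both the GeneChip WT PLUS and the NuGEN Ovation PicoSL kit. The authors deposited log2 values, and the submitters' processing notes name RMA, oligo and limma, with no version. Scanner files, strips and scan dates were not used here, so no batch could be examined. Of 41345 probe sets, 23521 have 1 gene symbol, 1814 several and 16010 none. The brightest probe set of each gene was kept, which left 22180 genes, 1082 of them with several.

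All 10 arrays were fitted in limma 3.58.1 (R 4.3.3) with 1 coefficient per group (5 residual and 3.58 prior degrees of freedom), so the groups share an estimate of spread. P-values were adjusted by Benjamini-Hochberg over all genes, and intervals are 95%. The fit was also run on simulated independent arrays with planted changes, which cannot show how shared animals or single pools affect the calls.

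Named genes were the 10 largest called rises and 10 largest called falls, and the 5 called rises and 6 largest called falls of the direct test. The PDGF genes and up to 4 called members of each of 37 lists (529 of 562 listed genes measured) were added. Unnamed predicted genes and receptor segment families were left out of the ranking, and pools of the groups compared could not overlap. Other genes are named, after their values were seen, to account for their lists. Some genes, such as Col1a1, Thbs4, Ncam1 and Chrna1, belong to several lists and are counted in each. The members and lists were chosen with earlier results of these data known. The alternatives tried were the arrays fitted, the prior, array centring, dim genes, probe set choice, array weights and leaving out each array. Promoters are from RefSeq.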

Additional observations from a re-analysis of the deposited data

How the results depend on the processing

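With inhibited overload the 345 calls (250 higher, 95 lower) were 102 (89 and 13) when only the arrays of the groups compared were fitted, 1068 (638 and 430) with a robust prior and intensity trend, 813 (528 and 285) with genes of mean under 3 left out, and 106 (77 and 29) over all probe sets. Array weights gave 146 lower genes. Uninhibited overload gave 31, 2115, 1906 and 509 calls under the first 4 of these, and the direct test gave 3, 161, 50 and 0. Leaving out single arrays gave 31 to 486 calls with inhibited overload (26 to 366 higher, 5 to 120 lower), 259 to 1232 with uninhibited overload and 0 to 180 in the direct test. Inhibited overload thus had more calls than uninhibited overload when only the compared arrays were fitted, and also without uninhibited pool 2 (486 and 324), so the order of these counts is not fixed. Centring arrays on a common median and averaging a gene's probe sets kept each of these counts within 1.5 times. Of the genes named by rule, 11 passed the direct test with the brightest probe sets and 7 with averaged ones. Among all named genes, 61 were called with inhibited overload over all arrays and 32 when only the compared groups were fitted, not necessarily the same genes. Why the counts moved was not tested, apart from fewer arrays or genes entering some fits.

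Some small differences, none of them called, turned sign with 1 array left out. The direct difference ranged from -0.130 to 0.185 for Casq2, -0.175 to 0.111 for Lpl, -0.212 to 0.532 for Ostn, -0.584 to 0.247 for Ccl8, -0.472 to 0.107 for Cd68, -0.755 to 0.0285 for Igfbp4, -0.926 to 0.387 for Lox and -0.748 to 0.00352 for Mmp23. It ranged from -1.57 to 0.199 for Myh8, -0.849 to 0.179 for Pdgfc, -0.319 to 0.171 for Slc30a2 and -0.212 to 0.00755 for Tnnc1. With uninhibited overload the change ranged from -0.0445 to 0.0564 for Lcn2 (-0.00237 on a common median) and from -0.281 to 0.197 for Stfa2l1. With inhibited overload it ranged from -0.0179 to 0.126 for H2-Ab1.

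No paired analysis was possible because the labels give the pools no shared replicate numbers. With 2 pools a group, the number of arrays limits the precision.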
